A study of Mus musculus with 2 samples.

Results

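Granulocyte monocyte progenitors (GMPs) with a moderate level of primary granule RNA were examined in droplet-based 3′ single-cell RNA sequencing of mouse bone marrow. The members were selected on measured values of single barcodes, and 301 of the 8085 barcodes of sufficient depth met every condition. A barcode was kept when it held 200 to 9000 detected genes, at most 30% mitochondrial UMIs and at least 5000 UMIs (unique molecular identifiers, each a tag of 1 captured RNA molecule). A member then had at least 1 UMI of *Cd34* and between 0.5% and 2% of its UMIs from *Elane*, *Prtn3*, *Mpo* and *Ctsg* together, called the granule share below. It also had less than 2% of its UMIs from *Camp*, *Ngp* and *Ltf*, fewer than 2 UMIs of *Flt3*, and no UMI of *Gata1* or *Mecom*.

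The 2 libraries came from mice of 13 to 14 weeks, and each was a mixture of 2 parts of c-Kit+ cells and 3 parts of bone marrow after lysis of red cells. According to the methods, cKO mice were Mx1-Cre *Map4k4* f/f, where an interferon-inducible promoter drives Cre and poly I:C injection triggers the deletion in blood-forming and other responsive cells. The controls (Ctrl) also carried Mx1-Cre and are written there as *Map4k4*-/-. The methods describe the poly I:C injections for the f/f mice and do not state whether the controls received them. Both lines were on C57BL/6, and the sources used here do not give the number of mice behind a library. Each group had 1 library, so no difference between them has a replicate check, no p-value is given, and every interval below is a 95% interval that covers counting error only. In Ctrl, 4362 of 10220 barcodes were kept, from a total of 71527701 UMIs, and in cKO 3723 of 6872, from a total of 64393950. The 242 Ctrl members held 4264117 UMIs, with a median of 16376 per barcode, and the 59 cKO members held 1541267, with a median of 23341.

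GMPs are the bone marrow progenitors from which neutrophils and monocytes arise. They express CD34 on their surface and begin to transcribe the serine proteases and the peroxidase that fill the primary (azurophilic) granules at the promyelocyte stage. The transcription factor IRF8 favours monocyte and dendritic cell fates, whereas GFI1 and C/EBPε act on the neutrophil side. Neutrophil elastase (*Elane*), proteinase 3 (*Prtn3*) and cathepsin G (*Ctsg*) are the proteases, and myeloperoxidase (*Mpo*) makes hypochlorous acid.

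The 4 granule genes that set the range lie at 3 places in the mouse genome (GRCm38). *Prtn3* (chr10:79874476-79883174) and *Elane* (chr10:79886247-79888215) lie on the same strand with 3072 bases between them, *Mpo* is at chr11:87793581-87804413, and *Ctsg* is at chr14:56099881-56102574. *Ctsg* lies 14607 bases from *Mcpt8* (chr14:56082166-56085273), the gene of a basophil protease that comes up again below. The stretch just before the start of the transcript that RefSeq gives for each granule gene is shown, up to the first exon base of that start in GENCODE, because transcription of these genes defines the members. The sequences are RefSeq sequences of GRCm38.p6, printed 5′ to 3′ on the strand of the gene, and capitals mark GAGGAA, the core recognised by the myeloid factor PU.1.
Elane: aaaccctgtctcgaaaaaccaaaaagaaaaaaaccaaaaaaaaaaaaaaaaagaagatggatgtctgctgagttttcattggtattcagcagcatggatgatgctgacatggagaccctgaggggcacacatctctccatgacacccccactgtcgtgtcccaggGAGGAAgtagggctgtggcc
Prtn3: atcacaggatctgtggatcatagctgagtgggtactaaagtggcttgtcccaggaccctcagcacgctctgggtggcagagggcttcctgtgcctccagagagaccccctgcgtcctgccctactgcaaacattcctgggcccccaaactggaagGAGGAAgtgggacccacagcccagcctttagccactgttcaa
Mpo: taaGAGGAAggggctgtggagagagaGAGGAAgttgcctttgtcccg
Ctsg: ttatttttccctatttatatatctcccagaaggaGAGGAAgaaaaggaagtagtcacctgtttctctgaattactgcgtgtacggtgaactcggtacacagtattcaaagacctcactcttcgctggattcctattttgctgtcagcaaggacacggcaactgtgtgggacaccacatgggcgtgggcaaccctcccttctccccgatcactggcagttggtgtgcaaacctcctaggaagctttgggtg
These stretches are chr10:79886062-79886246 (+) for *Elane*, chr10:79879417-79879613 (+) for *Prtn3*, chr11:87793534-87793580 (+) for *Mpo* and chr14:56102575-56102824 (-) for *Ctsg*. The *Prtn3* stretch lies inside the span given above for the gene, between exons of a longer GENCODE transcript that begins further upstream. In windows of 250 bases before the RefSeq start, searched on both strands, GAGGAA occurred 2 times for *Mpo* and 1 time for each of *Elane*, *Prtn3* and *Ctsg*, and 23.3% of the 32851 RefSeq promoters of the same length held it. A pair of C/EBP half-sites, TTGCNNAA, occurred in none of the 4 windows and in 9.56% of all promoters. A match describes letters in a window and is not a measured binding site.

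Values that chose the members are given as a description. *Mpo* was the most abundant of the granule genes, at 6229 CPM (UMIs summed over the barcodes of a group, per 1000000 of their total) in Ctrl members and 4407 CPM in cKO members. *Prtn3* had 3279 and 4032 CPM, *Elane* 2522 and 2466 CPM, and *Ctsg* 1486 and 1874 CPM. *Cd34*, with 1 UMI as the minimum, had a median of 3 UMIs per member in both libraries and at most 16 in Ctrl and 15 in cKO. The median granule share was 1.35% in Ctrl (quartiles 0.919% and 1.72%) and 1.28% in cKO (0.913% and 1.61%), so members filled the whole allowed range. No gap separated them from their neighbours at either bound. Just inside the upper bound, at 1.9% to 2%, 21 Ctrl members had 5267 CPM of *Plac8* and 658 CPM of *Ms4a3*, and the 10 Ctrl barcodes just outside it, at 2% to 2.1%, had 5435 and 674 CPM. In cKO the 4 members inside had 5383 and 953 CPM, and the 10 barcodes outside 5073 and 719 CPM. At the lower bound, the 14 Ctrl members at 0.5% to 0.6% had 176 CPM of *Ms4a3* and the 12 barcodes at 0.4% to 0.5% had 90.7 CPM, beside only 5 cKO members and 2 cKO barcodes.

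**Figure D1:**
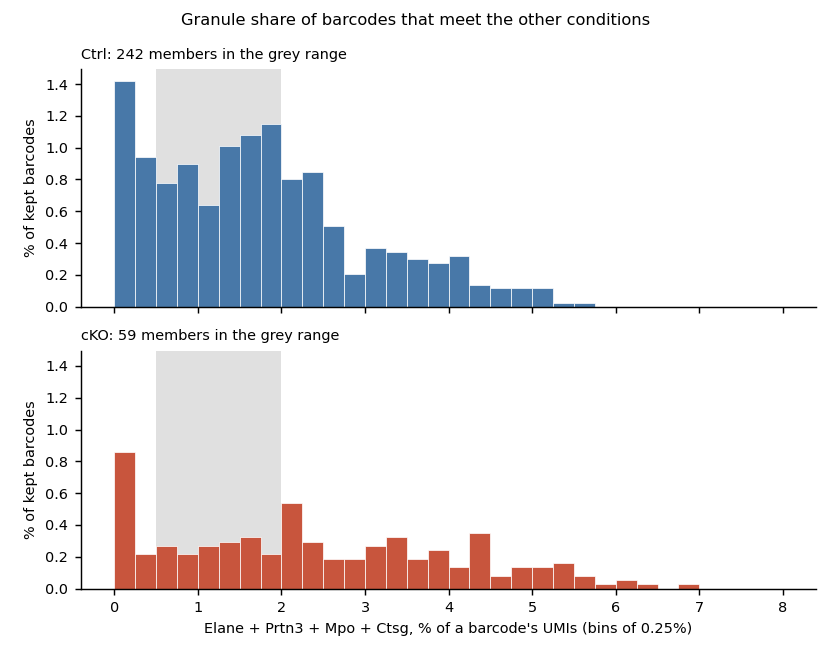
Histogram of the granule share (percent of a barcode's UMIs from *Elane*, *Prtn3*, *Mpo* and *Ctsg*, x axis) for barcodes that met every other condition, as a percentage of the kept barcodes of each library (y axis), with the range of the members shaded in grey. The members, at 0.5% to 2%, were 5.55% of the kept Ctrl and 1.58% of the kept cKO barcodes, and the distribution has no gap at either bound.

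The name GMP was compared with 10 markers outside the rule. Against the other kept barcodes, 5 of them were higher in the members in both libraries and 4 lower, beside 5748 higher and 1430 lower of all 8427 genes, and the median log2 ratios were 0.38 in Ctrl and 0.42 in cKO beside 0.27 and 0.68 for all genes. *Irf8*, *Plac8*, *Sox4* and *Cebpa* were at least 2-fold higher in both libraries and none of the 10 was 2-fold lower, beside 4.17% and 2.88% of all genes. *Irf8* (chr8:120736358-120756694) had at least 1 UMI in 84.3% of Ctrl and 78.0% of cKO members, against 31.2% and 13.2% of the other kept barcodes. *Plac8* (chr5:100553725-100572245), which is abundant in early myeloid progenitors, had UMIs in every member, at 4197 CPM in Ctrl and 4306 CPM in cKO, beside 2014 and 1837 CPM in the other kept barcodes. *Ly6c2*, a surface antigen gene of monocytes and their progenitors, had 1666 and 1626 CPM, beside 1410 and 1674 CPM in the other kept barcodes. *Fcgr3*, which encodes the CD16 receptor used to sort GMPs and which neutrophils also express, had 107 and 98.6 CPM beside 124 and 258 CPM, and *Spi1*, which encodes PU.1, 191 and 214 CPM beside 204 and 314 CPM. After each barcode was thinned to 5000 UMIs, 98.8% of Ctrl and 98.3% of cKO members held at least 3 UMIs of a list of monocyte progenitor genes, beside 98.5% and 96.1% of the barcodes that met the other conditions with a granule share above the range, 93.8% and 94.1% of those with at least 2 UMIs of *Flt3* and a share under 2%, and 73.5% and 74.0% of the other kept barcodes. Macrophage genes reached 3 UMIs in 0 of 242 and 0 of 59 members, beside 2.84% and 1.97% of the other kept barcodes. The counts of 0 allow up to 1.51% of Ctrl and 6.06% of cKO members with 3 such UMIs at this depth, the latter above the share in the other barcodes, and the most abundant gene of the list, *Adgre1*, was at 4.46 and 6.49 CPM. Dendritic progenitor genes, a list that holds *Flt3*, which the rule keeps under 2 UMIs, reached 3 UMIs in 19.0% and 18.6% of members, and T and NK cell genes in 16.5% and 6.78%, where *Nkg7*, which early neutrophil progenitors also express, supplied most of the UMIs.

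RNA of abundant marrow cells was present in the members and differed between the libraries. Late neutrophil genes reached 3 UMIs in 100% of the members of both libraries and in every neighbouring gate, so that their presence marked no cell type here. *S100a9*, the most abundant of them, had 2809 CPM in Ctrl and 1854 CPM in cKO members, against 57338 and 106585 CPM in the other kept barcodes. Genes of B and plasma cells reached 3 UMIs in 83.1% of Ctrl and 16.9% of cKO members, and in 61.2% and 8.59% of the barcodes with a granule share of 2% or more. *Igha* stood at 277 and 18.8 CPM in the members, *Igkc* at 327 and 68.8 CPM, and the haemoglobin gene *Hba-a2* at 98.5 and 11.7 CPM. Of 14 such genes from neutrophils, red cells and plasma cells, 12 were at least 1.5-fold lower in cKO members and none was higher, beside 11.9% and 3.33% of all genes tested. The strings of 3010 barcodes occurred in both libraries, including those of 122 of 242 Ctrl and 42 of 59 cKO members, and 2 strings were members in both. Without these strings 120 Ctrl and 17 cKO members were left. Without shared strings, 349 genes were at least 1.5-fold higher and 1097 lower in cKO members, in place of 281 and 1003. Without 522 free RNA, mitochondrial, ribosomal and similar genes the counts were 358 and 834.

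*Map4k4* (chr1:39900913-40026310), the gene targeted in the cKO mice, encodes a serine/threonine kinase. It had 315 UMIs in the Ctrl members, or 73.9 CPM, and 103 UMIs in the cKO members, or 66.8 CPM, and 66.1% and 67.8% of members held at least 1. The log2 ratio of cKO over Ctrl ran from -0.23 to 0.19 over the alternative settings. A count covers the whole gene without regard to exons. The level does not separate the libraries, and every direction below rests on their labels Ctrl and cKO. In both libraries the level of *Map4k4* stepped down from barcodes with at least 2 UMIs of *Flt3* and a granule share under 2%, otherwise as the members (131 CPM in Ctrl and 144 CPM in cKO) over those with a granule share under 0.5% (108 and 118 CPM) and the members to those with 2% or more (17.5 and 34.3 CPM).

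Members made up a smaller part of the cKO library. They were 242 of 4362 kept barcodes in Ctrl, or 5.55% (4.89 to 6.27%), and 59 of 3723 in cKO, or 1.58% (1.21 to 2.04%), a difference of -3.96 percentage points and 3.50-fold (2.62 to 4.74) more in Ctrl. The *Cd34* condition, applied first, was met by 960 Ctrl barcodes (22.0%) and 360 cKO barcodes (9.67%). The last condition applied, a granule share under 2%, took 196 of the remaining 438 barcodes in Ctrl and 128 of 187 in cKO. Each of 3 neighbouring gates was also a larger part of the Ctrl library, by 2.20-fold (1.51 to 3.25) for a granule share under 0.5%, by 2.84-fold (1.92 to 4.29) for at least 2 UMIs of *Flt3*, and by 1.31-fold (1.04 to 1.65) for a granule share of 2% or more. The c-Kit+ cells were mixed in at a set ratio, and 43.8% of the Ctrl and 55.4% of the cKO barcodes that passed the filters on genes and mitochondrial RNA reached 5000 UMIs. Effects of this mixing and depth cannot be told apart here from cell numbers. Without shared strings, members were 4.84% of the Ctrl and 1.11% of the cKO barcodes, and after thinning every barcode to 5000 UMIs 4.47% and 1.40%.

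Against the gate with a higher granule share, 14 of 15 monocyte progenitor genes were higher in the members in both libraries and 1 was lower, beside 4859 higher and 2149 lower of all 9767 genes, with median log2 ratios of 1.46 in Ctrl and 1.45 in cKO beside 0.11 and 0.17 for all genes. Of 17 promyelocyte genes outside the rule, 13 were lower and 3 higher, with medians of -1.01 and -1.31. *Clec11a* of this list, with 37 UMIs in Ctrl and 1 in cKO members, reached the minimum only through the gate. The exceptions were *Clec12a* of the monocyte list, with 292 CPM in Ctrl members against 627 CPM and 229 against 588 CPM in cKO, and genes such as *Lyz2* of the promyelocyte list, with 746 against 310 CPM and 1522 against 352 CPM. This gate, of 196 Ctrl and 128 cKO barcodes, met all other conditions. Of 9767 genes, 226 (2.31%) were at least 2-fold higher in the members in both libraries and 99 (1.01%) were at least 2-fold lower, among them 1 and 3 genes of the rule. *Klf4*, a transcription factor of monocyte differentiation, had 98.0 CPM in Ctrl members against 19.7 CPM in the gate, and 114 against 10.9 CPM in cKO. *S100a10*, a partner of annexin A2, had 266 against 73.0 CPM in Ctrl and 466 against 104 CPM in cKO. *Irf8* had 505 against 219 CPM and 432 against 174 CPM. *Ctss*, the lysosomal protease cathepsin S, had 68.7 against 16.6 CPM and 117 against 22.0 CPM. In the other direction, *Ms4a3* (chr19:11629496-11640851), a membrane protein gene typical of GMPs, had 438 against 1532 CPM in Ctrl and 540 against 1704 CPM in cKO. *Prss57*, a further granule serine protease gene, had 71.8 against 276 CPM and 78.5 against 307 CPM, and *Nkg7* had 219 against 834 CPM and 211 against 1138 CPM. *Fcnb*, *Pglyrp1*, *Cd63*, *Trem3*, *Rgcc* and *B4galt6* completed the lowest 10 with *Elane*, which belongs to the rule.

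Against the gate with a granule share under 0.5%, of 103 Ctrl and 40 cKO barcodes, 11 of 13 stem and multipotent progenitor genes were lower in the members in both libraries, 7 of them at least 2-fold, and none was higher in both. Their median log2 ratios were -1.10 in Ctrl and -1.38 in cKO, beside -0.038 and 0.040 for all genes. *Ly6a*, with 16 UMIs in Ctrl and 11 in cKO members, reached the minimum only through the gate. Of 9076 genes, 83 (0.914%) were at least 2-fold higher in the members in both libraries and 229 (2.52%) at least 2-fold lower. *Hlf*, a transcription factor of blood stem cells, had 13.4 CPM in Ctrl members against 79.0 CPM in the gate, and 11.7 against 101 CPM in cKO. *Meis1*, a cofactor of HOX proteins, had 21.8 against 98.1 CPM and 21.4 against 101 CPM. *Pf4*, platelet factor 4, had 5.86 against 433 CPM and 0.649 against 249 CPM. It also reached the minimum only through the gate, where it is high, so the filter fixed its direction. Others of the 229 lower genes may have passed in the same way. *Ms4a3* was higher in the members, with 438 against 55.7 CPM and 540 against 57.9 CPM, as was *Mt1*, a metallothionein gene, with 235 against 64.0 CPM and 290 against 88.0 CPM. This gate was mixed, since genes of B and plasma cells took 2.67% of its UMIs in Ctrl and late neutrophil genes 7.05% in cKO.

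Against the gate with at least 2 UMIs of *Flt3* and a granule share under 2%, the members held less RNA of lymphoid priming genes. Of its 10 genes, the 8 that had enough UMIs were lower in the members in both libraries, 7 of them at least 2-fold. Of all 9199 genes, 3037 were lower in both. *Dntt*, *Il7r* and *Ly6d* reached the minimum of 50 UMIs only through the gate, where they are high, so the filter fixed their direction. The 5 genes with 50 UMIs in the members, *Satb1*, *Notch1*, *Ighm*, *Sox4* and *Wfdc17*, were each lower in both libraries. Over all 8 genes the median log2 ratios were -1.87 in Ctrl and -1.84 in cKO, beside -0.025 and 0.014 for all genes. At least 3 UMIs of the list were found in 45.0% of thinned Ctrl members against 85.8% of the gate and in 35.6% against 73.5% in cKO. Of 9199 genes, 109 (1.18%) were at least 2-fold higher and 163 (1.77%) at least 2-fold lower in the members of both libraries. *Dntt*, the terminal deoxynucleotidyl transferase of lymphoid progenitors, had 1.64 CPM in Ctrl members against 373 CPM in the gate, and 0 UMIs in cKO members against 185 CPM. *Satb1*, a chromatin organiser of early lymphoid cells, had 51.1 against 173 CPM in Ctrl and 34.4 against 158 CPM in cKO. *Ly6c2* had 1666 against 428 CPM and 1626 against 346 CPM. *Fcgr3* had 107 against 26.3 CPM and 98.6 against 30 CPM. *Irf8* was close in the 2 groups, at 505 against 551 CPM in Ctrl and 432 against 412 CPM in cKO.

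Against all other kept barcodes, 351 of 8427 genes (4.17%) were at least 2-fold higher in the members in both libraries and 243 (2.88%) at least 2-fold lower. Late neutrophil genes took 15.6% of the UMIs of the other barcodes in Ctrl and 28.0% in cKO, and the median gene was higher in the members by 0.27 on the log2 scale in Ctrl and by 0.68 in cKO. *Lgals1*, galectin 1, had 853 CPM in Ctrl members against 230 CPM and 1142 against 203 CPM in cKO. *Ly86*, which encodes MD-1, a partner of the receptor CD180, had 168 against 46.1 CPM and 168 against 30.6 CPM. *Gria3*, a glutamate receptor subunit gene, had 201 against 42.9 CPM and 125 against 20.8 CPM.

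**Figure D2:**
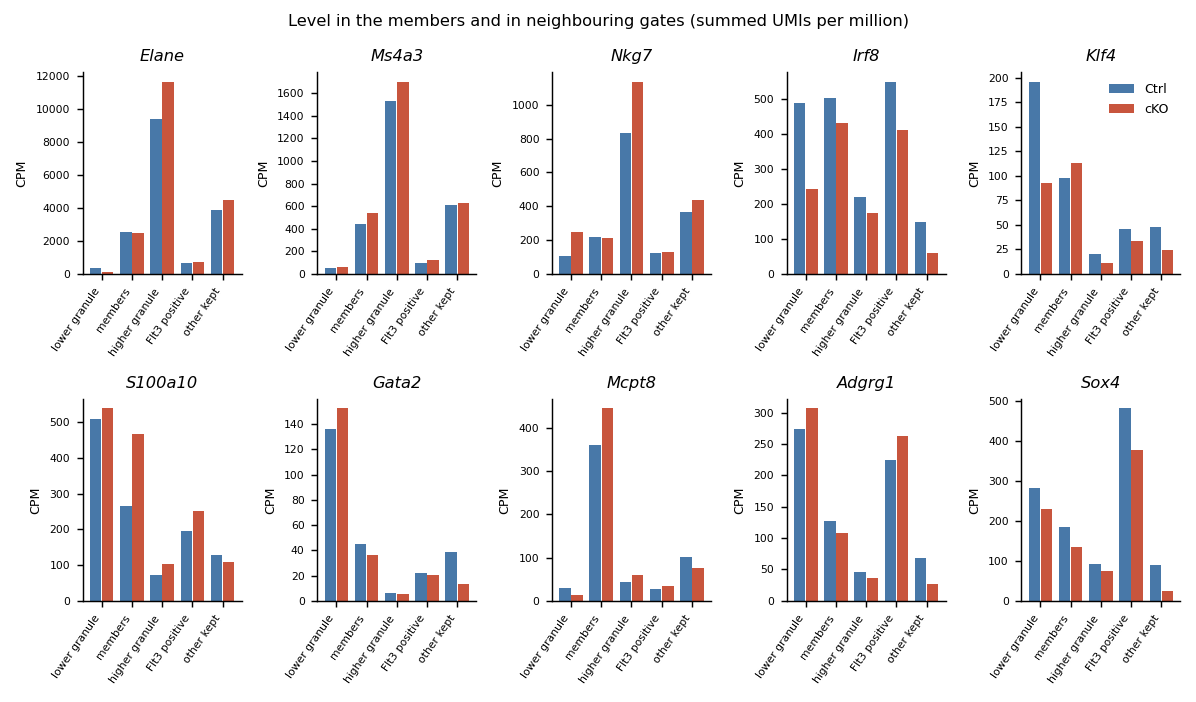
Level of 10 genes (CPM of summed UMIs, y axes from 0, a scale for each gene) in the members, in 3 neighbouring gates and in the other kept barcodes, with 1 bar for each library. *Ms4a3* steps up with the granule share, from 55.7 over 438 to 1532 CPM in Ctrl, and *Klf4* is higher in the members than at 2% or more in both libraries.

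Within the members, levels were followed over 3 bins of the granule share, of 0.5 to 1%, 1 to 1.5% and 1.5 to 2%, with 73, 72 and 97 members in Ctrl and 18, 21 and 20 in cKO. *Ms4a3*, which the rule does not use, had 228, 388 and 611 CPM in the 3 bins of Ctrl and 262, 534 and 790 CPM in cKO. The log2 ratio of the top bin over the bottom bin was 1.42 (1.22 to 1.62) in Ctrl and 1.59 (1.30 to 1.89) in cKO, the latter 0.89 with thinned members. *Plac8* had 3180, 4162 and 4882 CPM in Ctrl and 3423, 4179 and 5214 CPM in cKO. *Calr*, the calcium-binding chaperone calreticulin, had 1533, 1978 and 2242 CPM and 1278, 1814 and 1828 CPM. Both genes were thus higher in the top bin than in the bottom bin of each library, and *Calr* in cKO was nearly level over the upper bins. Of 24 genes for folding and secretion in the endoplasmic reticulum, 20 were higher in the top bin of both libraries and 2 lower, with a median log2 ratio of 0.43 in Ctrl and 0.33 in cKO, whereas 1786 of all 7212 genes compared were higher in both, with medians of -0.05 and -0.03. Of 16 further promyelocyte genes, 10 were higher in both and 4 lower.

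Monocyte-side genes mostly ran the other way. Of 11 stem and multipotent progenitor genes, 8 were lower in the top bin of both libraries and none was higher in both, with medians of -0.57 in Ctrl and -0.35 in cKO, although *Hoxa9* and *Hoxa7* were at 0.44 and 0.038 in cKO with intervals across 0. *Adgrg1*, an adhesion receptor gene of stem and early progenitor cells, had 183, 163 and 65.3 CPM over the bins of Ctrl and 153, 130 and 47.4 CPM in cKO. *Klf4* had 125, 102 and 77.7 CPM in Ctrl and 192, 93.0 and 66.3 CPM in cKO, and its log2 ratio of -0.69 in Ctrl became -0.10 with thinned members. *Zeb2*, a repressor that acts in monocyte and dendritic cell differentiation, had 453, 390 and 334 CPM and 220, 197 and 159 CPM. *Lyz2*, lysozyme 2, had 1282, 569 and 532 CPM in Ctrl and 2618, 1384 and 701 CPM in cKO, although 4 cKO members held 50% of its UMIs. The change of *Irf8* was small, with log2 ratios of -0.21 (-0.36 to -0.06) in Ctrl and -0.32 (-0.60 to -0.05) in cKO, the former -0.022 with thinned members. Of 7 monocyte and dendritic-side regulators, none was higher in the top bin of both libraries and 5 were lower, and of 15 monocyte progenitor genes 2 were higher and 10 lower, beside 2365 lower of all 7212 genes. The neutrophil-side regulator *Cebpe* (chr14:54710360-54712174), which encodes C/EBPε, was higher in the top bin, with log2 ratios of 0.79 (0.27 to 1.32) and 1.62 (0.27 to 3.22), the latter from 34 UMIs. Of 7 neutrophil-side regulators, 2 were higher and 3 lower in both.

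**Figure D3:**
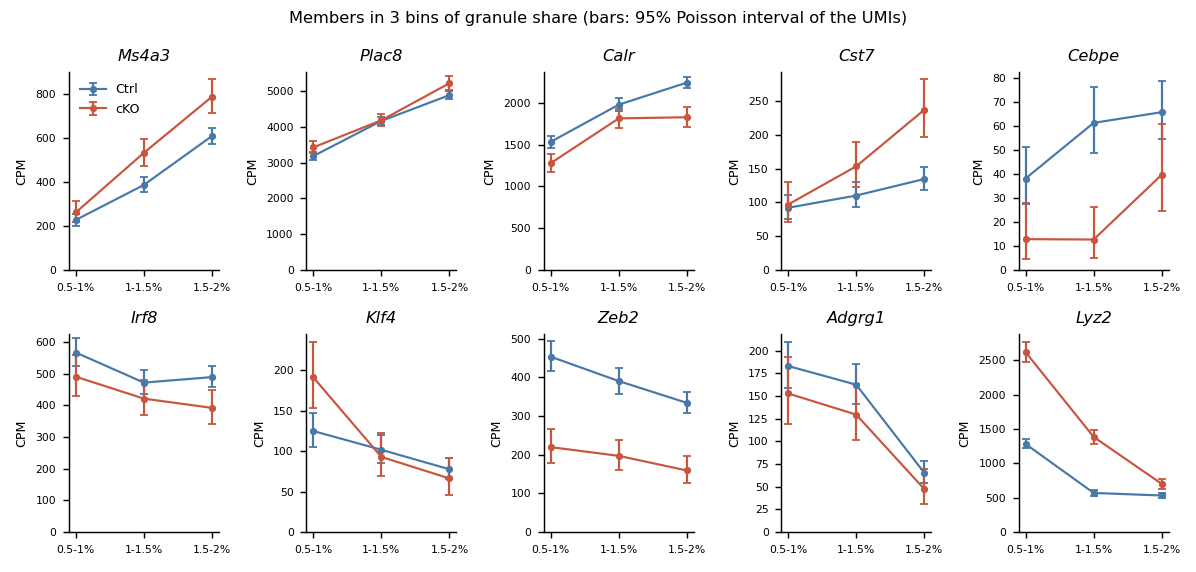
Level (CPM, y axes from 0) of genes outside the rule in the 3 bins of granule share (percent of UMIs, x axis), with a line for each library. *Ms4a3*, *Plac8* and *Calr* step up towards 2% in both libraries, and *Klf4*, *Zeb2* and *Adgrg1* step down.

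Members were also ordered by their monocyte progenitor genes. This order was not separate from the granule share. Of its 15 genes, 10 were lower and 2 higher in the top bin of that share in both libraries. After each member was thinned to 5000 UMIs, the 15 monocyte progenitor genes summed to between 1 and 53 UMIs in Ctrl members, with a median of 16, and to between 1 and 50 in cKO members, with a median of 15. Members were ordered by this sum and divided into 3 groups of about equal size within their library, a step chosen after the data were seen. *Irf8*, which is not in the list, had 147, 523 and 878 CPM from the lowest to the highest group in Ctrl and 30, 305 and 870 CPM in cKO. *Klf4* had 18.4, 45.3 and 228 CPM in Ctrl and 0, 10.5 and 230 CPM in cKO. *Cebpe* had 120, 48.0 and 20 CPM in Ctrl, and 60.0, 42.1 and 0 CPM in cKO. *Gfi1*, the repressor of the neutrophil side, had 48.3, 24.0 and 12.5 CPM in Ctrl and 80.0, 21.1 and 10.0 CPM in cKO, where the sums were 8, 2 and 1 UMIs. *Irf8* and *Klf4* were thus highest, and *Cebpe* and *Gfi1* lowest, in the same group of both libraries. Other regulators did not share this order, as *Zeb2* had 281, 459 and 450 CPM in Ctrl and 210, 73.7 and 230 CPM in cKO, and *Cebpa* 124, 61.3 and 87.5 CPM in Ctrl and 130, 73.7 and 20 CPM in cKO. The 4 granule genes belong to the rule, which bounds their sum, and their levels are given as a description. *Mpo* had 6616, 6795 and 5072 CPM in Ctrl and 4830, 6137 and 3220 CPM in cKO, *Elane* 1986, 2776 and 2685 CPM and 1510, 3432 and 2330 CPM, *Prtn3* 2386, 3349 and 3742 CPM and 2740, 4453 and 4310 CPM, and *Ctsg* 1352, 1656 and 1300 CPM and 1640, 2526 and 1470 CPM. *Adgrg1* (292, 104 and 12.5 CPM), *Gata2* (145, 53.3 and 7.50 CPM) and the receptor gene *Kit* (189, 133 and 52.5 CPM) were highest in the lowest group of Ctrl. In cKO *Adgrg1* was too (360, 116 and 0 CPM), while *Gata2* (90, 137 and 0 CPM) and *Kit* (50, 94.7 and 20 CPM) rested on at most 13 and 9 UMIs a group. *Mcpt8*, a basophil gene, had 1568, 413 and 17.5 CPM in Ctrl and 150, 2411 and 30 CPM in cKO, and the part of basophil-side members in the values of *Gata2* was not tested.

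**Figure D4:**
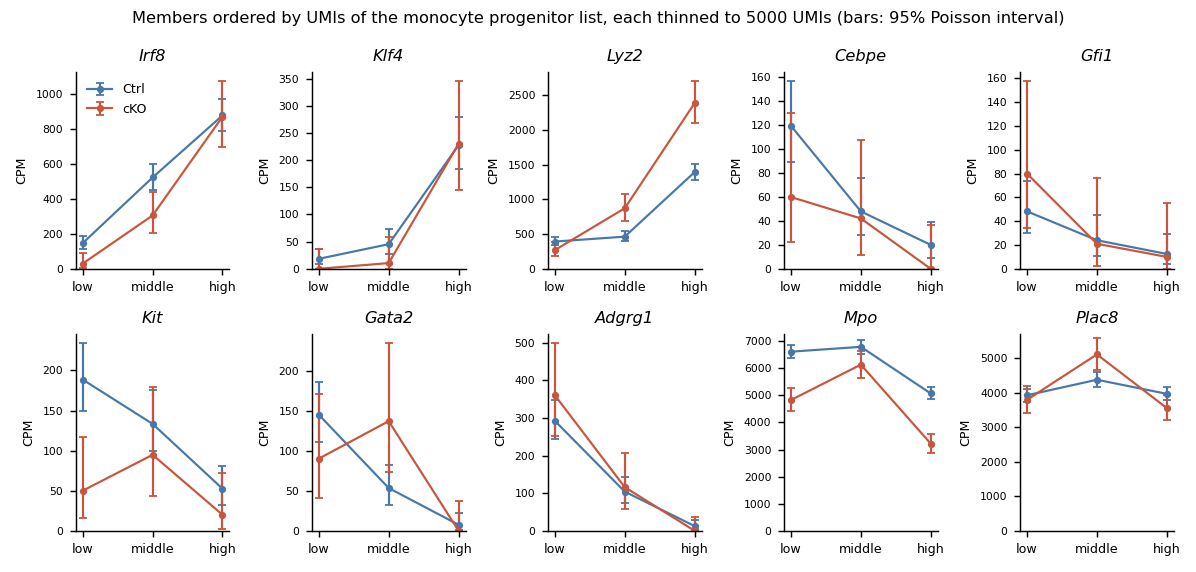
Level (CPM of UMIs after thinning to 5000 per member, y axes from 0) in the lowest, middle and highest group of the members of each library by the sum of 15 monocyte progenitor genes (x axis). *Irf8* and *Klf4* are highest in the highest group of both libraries and *Cebpe* is lowest there. *Mpo* belongs to the rule, which bounds the sum of the granule genes.

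A few members carried much RNA of basophils. After thinning, at least 3 UMIs of basophil, mast cell and eosinophil genes were found in 18.6% of Ctrl and 16.9% of cKO members, against 15.8% and 29.2% of the other kept barcodes, and the members with far more were set apart by a higher bound chosen after the data were seen. *Mcpt8* and *Prss34* encode proteases of basophils, and *Prg2* encodes the major basic protein of eosinophils. At least 50 UMIs of these 3 genes together were found in 6 of 242 Ctrl members (2.48%, 0.915 to 5.32%) and 2 of 59 cKO members (3.39%, 0.413 to 11.7%). One Ctrl member of 12388 UMIs held 406 UMIs of *Mcpt8* and 309 of *Prss34* with 37 of *Cpa3*, the mast cell carboxypeptidase, but 5 of *Elane* and 0 of *Irf8*. The 2 cKO members held 439 and 181 UMIs of *Mcpt8* and 390 and 168 of *Prss34*, with 0 UMIs of *Irf8* in both. *Mpo* gave 51 and *Ctsg* 20 of the UMIs that placed the first of these Ctrl members inside the range. Another Ctrl member held 507 of the 527 UMIs of *Prg2* found in Ctrl members, with 59 of *Elane* and 110 of *Mpo*. *Mcpt8* and *Prss34* were among the 10 genes highest in the members against each neighbouring gate, with 3 Ctrl members and 1 cKO member holding 50% of the UMIs of *Mcpt8*. Without the 8 members, 236 Ctrl and 57 cKO members were left, and their shares of the kept barcodes were 5.42% and 1.53%.

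Between the libraries, 281 of 8427 genes (3.33%) were at least 1.5-fold higher in cKO members and 1003 (11.9%) at least 1.5-fold lower, and the median gene had a log2 ratio of -0.12. The counting interval excluded 0 for 218 of the higher and 703 of the lower genes, and it lay wholly past 1.5-fold for 29 and 70. Scaling by the median of the gene ratios in place of the totals changed the split to 551 higher and 649 lower. Of the 281 higher genes, 63 had 50% of their cKO UMIs in 5 members or fewer, 54 were also at least 1.5-fold higher in cKO in the gate with a higher granule share, and 11 were lower there. Of the 1003 lower genes, 403 were also lower in that gate and 4 were higher. That gate itself had 152 higher and 1226 lower among 8791 genes.

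*Ifitm* genes, which encode small membrane proteins that restrict viral entry, were higher in cKO members. The list also took more UMIs of cKO in every other gate, so this was not particular to the members. Its shares were 0.105% and 0.198% in the members and 0.144% and 0.476% in the other kept barcodes. *Ifitm1* had 183 CPM in Ctrl and 592 CPM in cKO, a log2 ratio of 1.69 (1.55 to 1.83), with 50% of the UMIs in 26 Ctrl and 15 cKO members. At least 1 UMI was found in 67.8% of Ctrl and 96.6% of cKO members, without thinning, although cKO members were deeper. RNA from other barcodes was not subtracted, so these are not shares of expressing cells. The log2 ratio of *Ifitm1* was 3.25 with a higher granule share, 2.18 with one under 0.5%, 1.71 in the Flt3-positive gate and 2.9 in the other kept barcodes. *Ifitm2* had 472 and 774 CPM, a log2 ratio of 0.71 (0.61 to 0.82), and *Ifitm3* 308 and 535 CPM, 0.80 (0.67 to 0.93). Of 4 *Ifitm* genes with enough UMIs, 3 were at least 1.5-fold higher and none lower, with a median log2 ratio of 0.76. Of all genes, 3.33% were higher and 11.9% lower, for comparison with this list and the next. Of 12 other interferon-stimulated genes, 2 were higher, *Ifi27l2a* (29.3 and 45.4 CPM) and *Zbp1* (6.80 and 14.3 CPM), and none lower, with a median of 0.19. Their most abundant gene, *Bst2*, had 107 and 150 CPM.

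Several monocyte genes were higher in cKO, mostly through few members. *S100a4*, a calcium-binding protein gene, had 63.1 CPM in Ctrl and 212 CPM in cKO, a log2 ratio of 1.75 (1.51 to 1.99), but 5 cKO members held 50% of its UMIs, and with thinned barcodes the ratio was 0.32. The rule was applied again to thinned barcodes, so the members changed there. Proportions averaged over the unchanged members gave 1.39 for *S100a4*. *Ifi30*, a lysosomal thiol reductase gene, had 59.3 and 219 CPM, 1.89 (1.65 to 2.13), falling to 0.94 with thinned barcodes, and *Lgals3*, galectin 3, 75.3 and 197 CPM, 1.38 (1.15 to 1.62), also with 50% in 5 members each. *Lyz2* had 746 and 1522 CPM, 1.03 (0.95 to 1.11), with 437 UMIs in 1 cKO member, and its sign turned to -0.62 without shared strings. *Ccr2*, the receptor that draws monocytes out of the marrow, had 175 and 263 CPM, 0.59 (0.41 to 0.77), with 50% in 38 Ctrl and 7 cKO members. Of 15 monocyte progenitor genes, 6 were higher and none lower, beside 3.33% higher and 11.9% lower of all genes. The list took 0.380% of UMIs in Ctrl and 0.456% in cKO, a log2 ratio of 0.26 (0.22 to 0.30). With at least 2 UMIs of *Cd34* required of a member, this ratio was -0.14, and without shared strings 0.12. *F13a1* (495 and 405 CPM) and *Emb* (694 and 631 CPM), of the 3 most abundant genes of the list, were lower within 1.5-fold, and *Lgals1* was higher within it (853 and 1142 CPM).

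Regulators of both fates took a smaller share of UMIs in cKO members, by a log2 ratio of -0.36 (-0.50 to -0.23) for the neutrophil side and -0.33 (-0.41 to -0.24) for the monocyte and dendritic side. With thinned barcodes these ratios were -0.12 and -0.72, and with at least 2 UMIs of *Cd34* -0.24 and -0.76. The median ratio was -0.32 on the neutrophil side, but 0.14 over the 7 genes of the other side, where *Irf8* and *Zeb2* held most of the UMIs. *Cebpe* had 57.0 CPM in Ctrl and 22.1 CPM in cKO members, a log2 ratio of -1.37 (-1.93 to -0.85), with 50% of its UMIs in 12 Ctrl and 5 cKO members, and -0.75 with thinned barcodes. *Zeb2* had 384 and 191 CPM, -1.01 (-1.19 to -0.83), with 50% of its UMIs in 62 Ctrl and 13 cKO members. *Irf8* had 505 and 432 CPM, -0.22 (-0.35 to -0.10), which became -1.05 with thinned barcodes and -0.84 with at least 2 UMIs of *Cd34*. Both settings changed the members, and proportions averaged over the unchanged members gave -0.305. *Klf4* had 98.0 and 114 CPM, 0.21 (-0.05 to 0.47). *Cebpa*, which encodes C/EBPα and is needed for GMPs to form, had 72.0 and 69.4 CPM, and *Gfi1* had 27.7 and 24.7 CPM. Of 9 neutrophil-side regulators, 2 were lower (*Cebpe* and *Ets1*, at 13.6 and 5.84 CPM) and none higher, and of 7 monocyte and dendritic-side regulators 1 was lower and 1 higher (*Id2*, at 6.57 and 15.6 CPM), beside 11.9% lower and 3.33% higher of all genes. In the gate with a higher granule share, *Cebpe* had 108 and 114 CPM, *Zeb2* 201 and 136 CPM and *Irf8* 219 and 174 CPM. The log2 ratios of the lists there were -0.28 for the neutrophil side and -0.35 for the monocyte and dendritic side.

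Among growth factor receptors, *Kit*, the stem cell factor receptor used to enrich cells for these libraries, had 117 CPM in Ctrl and 57.7 CPM in cKO members, a log2 ratio of -1.02 (-1.36 to -0.69), and 132 and 71.7 CPM in the gate with a higher granule share. In members without shared strings the ratio of *Kit* was -0.12, and with thinned barcodes -0.53. Of the other 13 receptor genes, *Csf2rb2* was higher, at 7.97 and 13.6 CPM with an interval across 0, and none was lower. Of all genes, 3.33% were higher and 11.9% lower. The interferon gamma receptor gene *Ifngr1* had 171 and 141 CPM, and the chemokine receptor gene *Cxcr4* 87.0 and 106 CPM. Of 16 primary granule and promyelocyte genes outside the rule, *Ctsc* (82.6 and 154 CPM), the protease that activates granule serine proteases, and *Lyz2* were higher. *Rab44* (217 and 136 CPM), a large Rab GTPase, was lower, beside the same shares of all genes. *Ms4a3* had 438 and 540 CPM.

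Immediate early genes, whose transcription starts within minutes of a stimulus, were lower in cKO members. Of 13 genes, 12 were at least 1.5-fold lower and none higher, beside 11.9% lower and 3.33% higher of all genes. The list fell from 0.211% of UMIs in Ctrl to 0.0957% in cKO, a log2 ratio of -1.14 (-1.22 to -1.06), beside -0.70 in the gate with a higher granule share. In the gate with a granule share under 0.5% the list was not lower in cKO, at 0.282% and 0.302% of UMIs. It took 0.244% and 0.207% in the Flt3-positive gate and 0.166% and 0.137% in the other kept barcodes. A lower share in cKO was thus not particular to the members. *Fosb* had 209 and 44.1 CPM, *Egr1* 108 and 29.9 CPM, *Jun* 508 and 188 CPM and *Fos* 406 and 226 CPM. After thinning, at least 3 UMIs of the list were found in 88.4% of Ctrl and 64.4% of cKO members. Nuclear-retained RNA moved in the same direction, with 7 of 8 genes lower, from 2.81% to 1.39% of UMIs (log2 ratio -1.02), and *Malat1* at 5171 and 2323 CPM. Nuclear-retained RNA was lower in cKO in every gate and so not particular to the members. Its shares were 1.46% and 0.852% with a higher granule share, 5.30% and 2.94% in the Flt3-positive gate and 3.24% and 1.48% in the other kept barcodes. The median share of mitochondrial UMIs was 2.42% in Ctrl and 1.63% in cKO members. With 1 library per group, a difference in the handling of the cells cannot be told apart from the genotype.

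Cell cycle genes took 0.818% of UMIs in Ctrl and 0.770% in cKO members, a log2 ratio of -0.09 (-0.12 to -0.06), which pooled a ratio of -0.27 (-0.31 to -0.22) for replication genes with one of 0.079 (0.038 to 0.12) for mitosis genes. The pooled ratio was -0.23 in the gate with a higher granule share, and it turned to 0.030 with scaling by the median of gene ratios. The ratio of mitosis genes turned to -0.17 with at least 2 UMIs of *Cd34* and to -0.067 without shared strings. Of all genes, 11.9% were lower and 3.33% higher, for comparison with the lists of this paragraph. Of 30 replication genes 3 were lower, *Chaf1b* and *Dtl* among them, and none higher, which is near the share of all genes. *Pcna*, the sliding clamp of DNA polymerase, was at 487 and 461 CPM. Of 30 mitosis genes, *Cdca3* was higher (89.6 and 143 CPM) and none lower, with *Mki67* at 631 and 544 CPM and *Top2a*, the topoisomerase that untangles chromosomes, at 598 and 557 CPM. At least 3 UMIs of replication genes were found in 99.2% and 100% of thinned members, and of mitosis genes in 95% and 91.5%. Of 11 D cyclin, CDK and inhibitor genes, 3 were higher and 1 lower. The inhibitor genes *Cdkn1a* and *Cdkn2d* had 11 and 34.2 CPM in Ctrl and 24.7 and 61.0 CPM in cKO, and *Ccnd1* had 21.3 and 2.60 CPM.

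The title of the series names the apoptosis pathway, and 6 of 8 BCL2 family genes, 12 of 13 caspase and related genes and 5 of 7 genes of p53 and its targets were within 1.5-fold, beside 7143 of all 8427 genes. *Bcl2*, which guards mitochondria against permeabilisation, had 109 CPM in Ctrl and 66.2 CPM in cKO members, a log2 ratio of -0.71 (-1.04 to -0.40), which became -0.13 with thinned barcodes and -0.32 without shared strings. Both settings changed the members, and proportions averaged over the unchanged members gave -0.41. *Mcl1*, the survival factor on which neutrophils depend, had 101 and 90.2 CPM, and the effector gene *Bax* 85.4 and 115 CPM. *Bcl2l11*, a BH3-only activator, had 16.6 and 11 CPM. Of 8 genes of the BCL2 family, 2 were lower and none higher, and of 13 caspase and related genes *Casp1* was lower (52.3 and 31.8 CPM) and none higher. *Casp8* had 80.2 and 80.5 CPM and cytochrome c (*Cycs*) 429 and 568 CPM. Of 7 genes of p53 and its targets, *Cdkn1a* and *Gtse1* were higher and none lower, and *Trp53* itself had 177 and 170 CPM.

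Of 17 kinases of the MAP4K, JNK, p38 and ERK pathways, 3 were lower in cKO and none higher, beside 11.9% and 3.33% of all genes. *Map2k7*, which activates JNK, had 41.7 CPM in Ctrl and 22.7 CPM in cKO, *Mapk9*, which encodes JNK2, 30 and 14.9 CPM, and *Map4k5* 12.7 and 5.19 CPM. *Mapk14*, p38α, had 105 and 83.7 CPM. Of 11 STAT and JAK genes, *Jak3* and *Pim1*, a target of STAT5, were higher, the latter with 92.6 and 143 CPM. Of 17 genes of the MYC network, *Mxd3* was higher and *Mxd1* and *Mga* were lower, with the nucleolar protein genes *Ncl* at 2158 and 1746 CPM and *Npm1* at 2151 and 2194 CPM. Glycolysis genes took 0.411% and 0.522% of UMIs, a log2 ratio of 0.35 (0.31 to 0.38), with none of 14 past 1.5-fold and *Gapdh* at 1298 and 1862 CPM. Of 24 genes of folding and secretion, none was past 1.5-fold, and of 16 cholesterol synthesis genes *Fdps* was higher (83.0 and 133 CPM). None of 8 haem synthesis genes was past 1.5-fold. Stem and multipotent progenitor genes had 2 higher (*Hoxa7* and *Ifitm3*) and 2 lower (*Angpt1* and *Erg*) of 12.

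Without the barcodes whose strings occur in both libraries, 349 genes were at least 1.5-fold higher and 1097 at least 1.5-fold lower in the 17 cKO members than in the 120 Ctrl members. The log2 ratio of *Ifitm1* was 1.71 there, of *Ifitm2* 0.51, of *Fosb* -2.29, of *Cebpe* -1.55, of *Zeb2* -1.32 and of *Malat1* -1.55. *Irf8* was at -0.62, *S100a4* at 1.17, *Ifi30* at 1.59 and *Ms4a3* at 0.17. The immediate early list was at -1.25, the *Ifitm* list at 0.84, and the regulators of the monocyte and dendritic side and of the neutrophil side at -0.73 and -0.53.

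**Figure D5:**
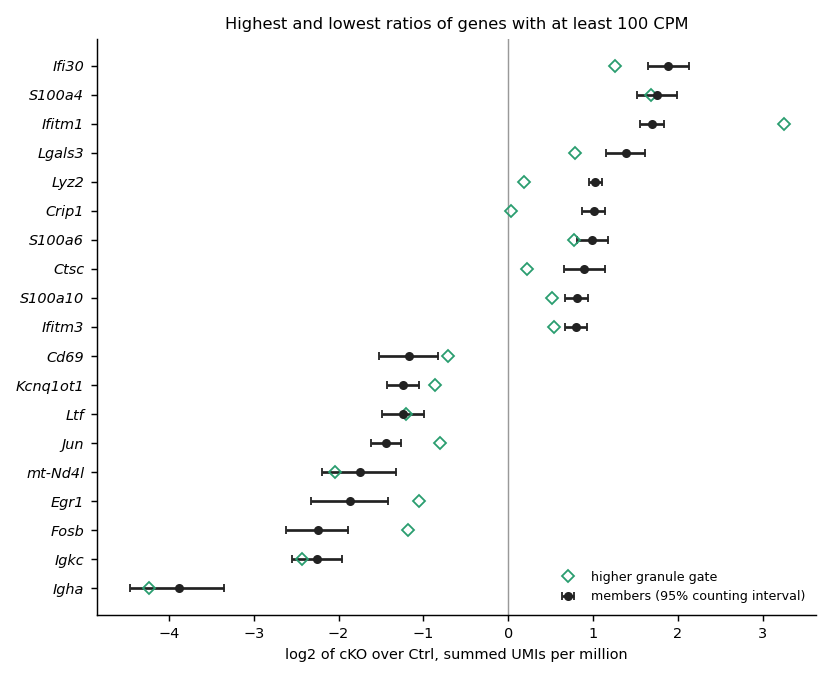
Log2 ratio of cKO over Ctrl members (x axis) for the genes with the highest and lowest ratios, with 95% intervals from counting error as bars. Diamonds give the ratio in the gate with a higher granule share, and *Prg2*, at 0 UMIs in cKO, is left out. *Ifitm1*, at 1.69, is to the right of 0 and *Fosb*, at -2.25, to the left.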

How the data were processed

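The deposited files hold counts of UMIs for each gene in each barcode called as a cell, which the authors made with Cell Ranger 5.0.0 on mm10 (GRCm38). The counts were not normalized, and none of the filters in the methods (detected genes, mitochondrial share, doublets) had been applied to them. The filters on genes and mitochondrial share were applied here, and barcodes needed at least 5000 UMIs. No doublet caller was run. The libraries held 71527701 (Ctrl) and 64393950 (cKO) UMIs, and columns that belong to no sample numbered 0.

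The members and gene lists were chosen with earlier results of these data known. UMIs were summed per gate and library and scaled to CPM. Genes needed 50 UMIs over the groups compared, except that against the other kept barcodes the members alone needed them. Against a neighbouring gate, a gene could thus pass through the side where it is high. Over the bins, genes needed 20 UMIs in both libraries. A library at 0 entered at 3 counts, and a ratio past 1.5-fold (libraries) or 2-fold in both libraries (gates) was called. Shares carry Clopper-Pearson intervals and ratios exact binomial intervals, at 95%. Thinning used a fixed seed. For ratios with thinned barcodes the rule was applied again after thinning, which left 195 Ctrl and 52 cKO members. These ratios thus differ in members as well as depth. Ratios with thinned members kept the main members. The intervals were tested on simulated Poisson and binomial counts. These hold no variation between cells, so that test covers counting error only.

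Named are the genes of the rule, *Map4k4*, the 10 highest and 10 lowest ratios among genes of at least 100 CPM in each comparison, and of each of 35 lists (473 of 477 genes matched) the called and the 3 most abundant genes. Of these the text gives a selection. Some items are not reported here. Genes followed over the bins and groups of members came from the lists, and the groups by monocyte genes were made after the data were seen. Coordinates are from GENCODE vM21 and sequences from RefSeq (GRCm38.p6).

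Alternatives were UMI floors of 2000 and 10000, thinning to 5000 UMIs, 10% mitochondrial UMIs, other bounds for *Cd34* (2 UMIs) and the granule share (1%), leaving out the 10% of members with most UMIs, other denominators, scaling by the median of ratios, averaging proportions over cells, averaging ratios over the 3 bins of granule share, minimum UMIs of 20 and 200 per gene, and leaving out 522 mitochondrial, ribosomal and similar genes. Leaving out basophil-side members or shared strings was added after the data were seen. Calculations used Python 3.11.15, numpy 2.4.6, scipy 1.17.1, pandas 2.3.3 and matplotlib 3.10.9.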

Additional observations from a re-analysis of the deposited data

How the results depend on the processing

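No paired analysis was possible because each group has 1 library. Depth limited genes under about 50 UMIs, and 59 cKO members limited every cKO value. The difference in member share of -3.96 points was -2.28 with a floor of 2000 UMIs, -6.00 with a floor of 10000 UMIs and -2.77 with a granule share from 1%. Over Cd34-positive barcodes it was -8.82, from 242 of 960 in Ctrl and 59 of 360 in cKO, so that the ratio of the shares was smaller there. Over all barcodes that passed the filters on genes and mitochondrial RNA it was -1.55. The 281 genes higher in cKO became 551 with median-of-ratios scaling, 443 from 20 UMIs and 88 from 200 UMIs per gene. The 1003 lower genes became 649, 1510 and 309 in the same order, and 626 with thinned barcodes. From 200 UMIs, 143 genes in place of 351 were 2-fold higher than in the other barcodes. The cell cycle ratio of -0.09 was -0.12 with a floor of 10000 UMIs and with thinning, -0.22 with 2 UMIs of *Cd34*, -0.021 without the members of most UMIs, -0.21 without shared strings and 0.030 with median-of-ratios scaling. The monocyte progenitor ratio of 0.26 was 0.072 with thinning, -0.14 with 2 UMIs of *Cd34*, 0.22 with a granule share from 1%, 0.12 without shared strings and 0.38 with median-of-ratios scaling. With thinned members, the ratio of top over bottom bin was -0.022 for *Irf8* and -0.10 for *Klf4* in Ctrl, and -0.89 for *Klf4* and 0.89 for *Ms4a3* in cKO. Further sign changes were the mitosis list, at -0.17 with 2 UMIs of *Cd34* and -0.067 without shared strings, and *Lyz2*, at -0.62 without shared strings. The cause of these changes was not tested. Over all alternatives run, *Ifitm1* stayed between 1.65 and 2.20, *Fosb* between -2.35 and -1.79, *Cebpe* between -1.73 and -0.75, *Zeb2* between -1.32 and -0.74, and the immediate early list between -1.29 and -1.02. *Kit* ranged from -1.04 to -0.12, *Bcl2* from -0.76 to -0.13 and *S100a4* from 0.32 to 2.17.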

Other observations

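Among barcodes of 2000 to 5000 UMIs, which were too shallow to be members, 28 of 2890 in Ctrl (0.969%, 0.645 to 1.40%) and 6 of 786 in cKO (0.763%, 0.281 to 1.65%) met the rest of the rule. They had 3424 CPM of *Plac8* in Ctrl and 5094 CPM in cKO, and 364 and 249 CPM of *Irf8*. *Ms4a3* had 271 and 683 CPM.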
